A study of Mus musculus with 12 samples.

Results

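The 40 genes of glucose breakdown and of the response to low oxygen listed here were followed across 4 populations of mouse cells labelled as T cells. The rule that chose them was their known function, not a threshold on these arrays, but earlier results of these data were known when the list was drawn up. Of the 40 genes, 36 had a probe set (a set of short probes that reads 1 transcript) annotated to that gene alone, and 35 of these lay in the brighter 60% of probe sets that were tested, out of 12609 genes tested in all. P4ha2, the 36th, lay below that level. Gapdh and Bnip3l were covered only by probe sets annotated to further genes as well, and the annotation used here gave no probe set for Gpi1 or Eno1, so these 4 genes have no value. Ero1l appears in the annotation as Ero1a.

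The study, on FoxA1-positive regulatory T cells in the mouse model of multiple sclerosis, compared cells from mice of the C57BL/10.RIII strain. Encephalitogenic T cells (EncT), which cause inflammation of the brain, were CD4+. The nFoxA1Treg cells, called neuron induced in one label and natural in another, were CD4hi and PD-L1hi. The Treg cells were CD4+ and TGFbeta+, and the iFoxA1Treg cells, labelled as induced by interferon-beta, were CD4hi and PD-L1hi. Each group had 3 arrays, and the labels give no age. Nothing in the labels ties the 3 to different mice or cultures, and the p-values therefore refer to the spread among these samples, part or all of which may be technical. Levels are normalized log2 values, on which a difference of 1 is a doubling, and a change is the first-named group minus the second with its standard error (SE).

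In glycolysis, glucose enters the cell through carriers, is split and oxidised to pyruvate, and leaves as lactate or passes into the mitochondrion. Lymphocytes that are stimulated and dividing are known for running this route even where oxygen is present. Oxygen is sensed by prolyl hydroxylases of the Egln family, which use it to mark the transcription factor HIF1A for destruction through Vhl. When HIF1A is stable it binds a short core motif in DNA and raises most enzymes of glycolysis, together with its own hydroxylases and several stress genes.

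The core motif bound by HIF1A was looked for in the 250 bases upstream of each gene start, as ACGTG or GCGTG on either strand, with CACGTG, which is also the E-box read by other factors such as Myc, counted once. Promoter sequences were those of RefSeq for the build GRCm38.p6. Slc2a3, Bnip3l and Bhlhe40 had no entry in the promoter table. Of the other 37 genes of the list, 34 (91.9%) held at least 1 match and 25 (67.6%) held 2 or more, where 41.5% and 15.5% of the 27025 genes in the table did. CACGTG lay in 6 of the 37 (16.2%), against 6.86% of all genes. A gene with several starts was counted by the start with the most matches, and CACGTG at any of its starts. The list was chosen partly for known response to HIF1A, so a share above that of all genes was built in. The 27025 genes were also not limited to those tested on the arrays, so no conclusion is drawn from the difference. A match describes the letters and is not a site shown to be bound. The windows of 4 genes that were lower in both regulatory groups and of Slc16a1, the gene that was higher in both, are shown, 1 from each of 4 roles among the genes with clear falls (lactate export, pyruvate use, protein hydroxylation and mitochondrial removal), so that they can be set beside the gene that ran the other way. They lie at chr11:120948817-120949066 on the plus strand (Slc16a3), chr2:71872974-71873223 on the plus strand (Pdk1, the first of its starts), chr10:59323046-59323295 on the plus strand (P4ha1), chr7:138909507-138909756 on the minus strand (Bnip3) and chr3:104638414-104638663 on the plus strand (Slc16a1). Capitals mark the core motif, written CACGT or CACGC where it reads on the opposite strand.
Slc16a3: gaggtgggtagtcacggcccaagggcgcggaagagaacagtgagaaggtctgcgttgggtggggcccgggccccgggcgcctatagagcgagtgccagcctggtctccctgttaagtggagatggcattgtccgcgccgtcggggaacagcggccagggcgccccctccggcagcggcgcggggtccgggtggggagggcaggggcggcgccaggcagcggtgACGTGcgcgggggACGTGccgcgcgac
Pdk1: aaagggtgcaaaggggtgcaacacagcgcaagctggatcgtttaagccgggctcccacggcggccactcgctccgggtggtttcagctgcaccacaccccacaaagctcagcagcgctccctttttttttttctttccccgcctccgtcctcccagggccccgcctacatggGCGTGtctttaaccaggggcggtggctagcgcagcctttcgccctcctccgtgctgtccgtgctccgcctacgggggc
P4ha1: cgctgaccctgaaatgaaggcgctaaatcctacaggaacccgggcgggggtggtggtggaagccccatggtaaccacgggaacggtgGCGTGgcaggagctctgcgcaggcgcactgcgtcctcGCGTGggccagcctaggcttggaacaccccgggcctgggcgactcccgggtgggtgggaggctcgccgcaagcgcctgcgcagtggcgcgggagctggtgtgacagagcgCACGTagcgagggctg
Bnip3: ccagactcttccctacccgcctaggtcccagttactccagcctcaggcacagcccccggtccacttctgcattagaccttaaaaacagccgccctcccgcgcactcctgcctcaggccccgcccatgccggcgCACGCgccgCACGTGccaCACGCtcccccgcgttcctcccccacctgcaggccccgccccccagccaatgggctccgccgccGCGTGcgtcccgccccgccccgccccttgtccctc
Slc16a1: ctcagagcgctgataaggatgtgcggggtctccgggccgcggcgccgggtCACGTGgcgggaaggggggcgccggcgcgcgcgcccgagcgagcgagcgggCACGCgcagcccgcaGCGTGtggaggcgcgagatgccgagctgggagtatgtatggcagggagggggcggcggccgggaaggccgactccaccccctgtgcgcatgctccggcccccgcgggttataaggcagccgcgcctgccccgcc

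Slc16a3 held 2 matches close to its start, Bnip3 held 4, P4ha1 held 3 and Pdk1 held 1. Slc16a1, whose level moved the other way, held 3 matches. Slc16a1 and Bnip3 each had CACGTG among their matches. Matches were common on both sides: 17 of 18 genes that were lower in both regulatory groups and had an entry held at least 1, as did 8 of the 9 with an entry that were tested and called in neither.

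The deposited medians of the 12 arrays lay between 4.64 and 4.84, the lowest 3 being the arrays labelled iFoxA1Treg. Cd4 and Cd3e, which define CD4+ T cells, averaged 10.39 to 10.57 and 10.58 to 10.73 in EncT, nFoxA1Treg and Treg, whereas on the arrays labelled iFoxA1Treg they averaged 4.24 and 7.83. There the macrophage gene Lyz2 averaged 12.36 and the B cell gene Cd79b 12.17, while Itgax of dendritic cells averaged 3.20. The macrophage gene Csf1r averaged 6.92 there, and 5.07 to 5.44 in the other 3 groups. Other T cell genes stayed bright on these arrays, with Cd3d at 10.70 and Cd2 at 10.19. In the other 3 groups Cd3d averaged 12.08 to 12.13 and Cd2 10.71 to 10.84. All 7 measured T cell genes averaged above 4.05, the level needed for testing. In Cd4, Lyz2 and Cd79b these 3 arrays therefore went against their label, and they are written throughout as the arrays labelled iFoxA1Treg. They entered differences among the other 3 groups through the normalization, the choice of probe sets and the shared estimate of the spread, and without them 18 and 21 genes of the list, in place of 21 and 24, were called against EncT in nFoxA1Treg and Treg. Over all genes, 2270 and 1782 of 12496 were called without them, in place of 2474 and 2084.

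Most of the list was lower in both regulatory groups than in encephalitogenic T cells. In nFoxA1Treg, 20 of the 35 tested genes fell and 1 rose, where 11.2% of all genes tested fell and 8.46% rose (limma, p adjusted over all genes by Benjamini-Hochberg, under 0.05). In Treg, 22 fell and 2 rose, where 10.3% of all genes fell and 6.23% rose. The median change over the list was -0.43 in nFoxA1Treg and -0.53 in Treg, where the median over all genes was -0.0045 and -0.0038. The change was negative in both comparisons for 32 of the 35. In all, 19 genes of the 35 fell in both, where 8.15% of all genes did. Slc16a1 rose in both, as did 5.31% of all genes, and 10 were called in neither, where 77.3% of all genes were. All 3 nFoxA1Treg arrays lay below all 3 EncT arrays for 21 of the 35 genes and above them for 2, where 17.9% and 15.8% of all genes did so, and the Treg arrays for 23 and 2, where 19.2% and 14.1% did. Both comparisons use the same 3 EncT arrays, so their resemblance is not independent. The test shares 1 spread per gene over all 4 groups. For the list the median standard deviation was 0.372 within EncT and 0.0669 to 0.104 within the others. The SE and p-values against EncT therefore understate the spread of EncT itself. On the 6 arrays of the 2 groups alone, 9 genes were called in nFoxA1Treg and 14 in Treg, with 1229 and 1140 over all genes. In a mixed sample, fewer cells of a type and less RNA per cell cannot be told apart.

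**Figure D1:**
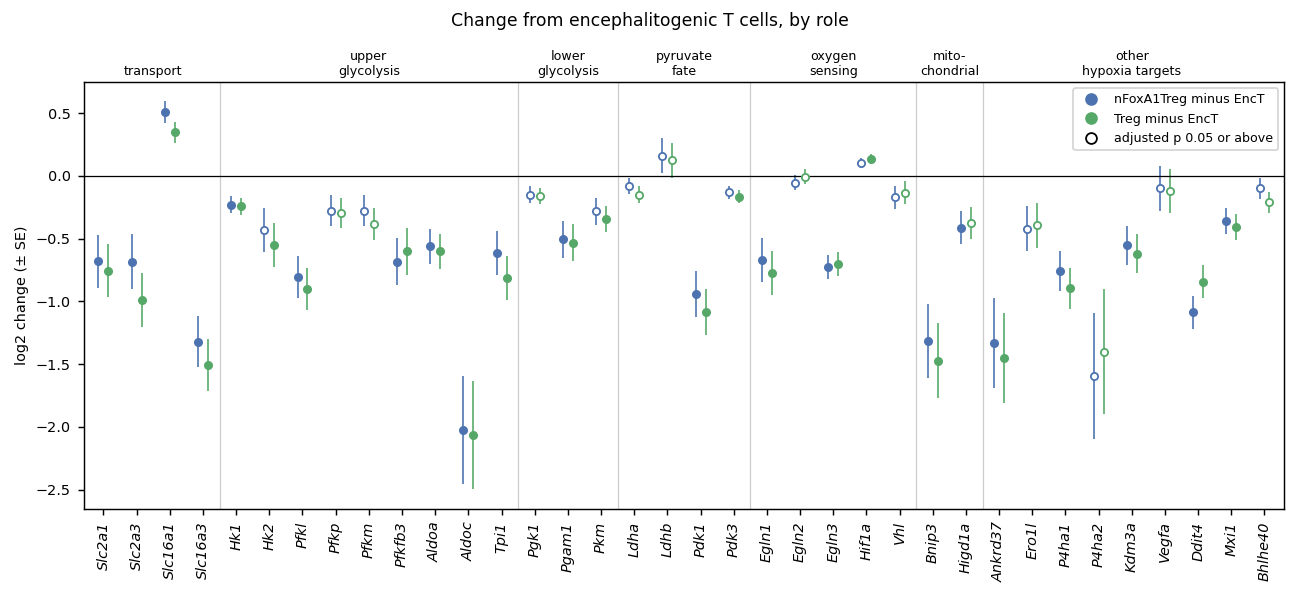
Log2 change from encephalitogenic T cells (points, with SE as bars) of the 36 measured genes, ordered by role, in nFoxA1Treg (blue) and Treg (green), 3 arrays per group. Open points have an adjusted p of 0.05 or above, and P4ha2 comes from the fit without the filter. Aldoc reaches -2.02 and -2.07, and Slc16a1 stands above 0 at 0.51 and 0.35.

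Among the 4 transporters, 3 fell and 1 rose in each comparison. Over all genes 11.2% fell and 8.46% rose in nFoxA1Treg, and 10.3% fell and 6.23% rose in Treg. Slc16a3 (probe set 1449005_at), the monocarboxylate carrier that exports lactate from strongly glycolytic cells, read 8.46, 7.56 and 7.78 on the EncT arrays, 6.80, 6.73 and 6.31 in nFoxA1Treg and 6.59, 6.27 and 6.42 in Treg. Every EncT array was above all 6 others. Its level was 2.50-fold lower in nFoxA1Treg (log2 change -1.32, SE 0.21, adjusted p = 0.00115) and 2.84-fold lower in Treg (-1.51, SE 0.21, adjusted p = 0.000706). Slc16a1 (1415802_at), the carrier of the same family that many tissues use to move lactate in either direction, ran the other way. It read 7.97, 7.94 and 8.09 in EncT, 8.56, 8.49 and 8.48 in nFoxA1Treg and 8.26, 8.27 and 8.52 in Treg. All 3 EncT arrays were the lowest of these 9. It was 1.42-fold higher in nFoxA1Treg (0.51, SE 0.09, adjusted p = 0.00172) and 1.27-fold higher in Treg (0.35, SE 0.09, adjusted p = 0.0170). The Treg call was lost with the values as deposited (adjusted p = 0.0640), with arrays centred on their medians (0.0745) and without Treg replicate 3 (0.0783), whereas the nFoxA1Treg call held in each of the 18 alternatives run at the same threshold.

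The glucose carriers Slc2a1, the widespread basal form, and Slc2a3, a high-affinity form prominent in lymphocytes, both fell. Slc2a3 read 10.48, 9.49 and 10.31 in EncT, 9.69, 9.58 and 8.96 in nFoxA1Treg and 9.07, 9.05 and 9.20 in Treg. EncT replicate 2 lay below the nFoxA1Treg arrays 1 and 2, so those groups overlapped, whereas all Treg arrays lay below all EncT arrays. Slc2a3 was 1.61-fold lower in nFoxA1Treg (-0.68, SE 0.22, adjusted p = 0.0430) and 1.98-fold lower in Treg (-0.99, SE 0.22, adjusted p = 0.00942). Slc2a1 changed by -0.68 and -0.76 (SE 0.21 for both), and by -0.34 and -0.41 without EncT replicate 1. The nFoxA1Treg calls of both carriers were lost in the fit on the 6 arrays of the 2 groups alone, as was the Treg call of Slc2a1. Of the 18 alternatives, the nFoxA1Treg call held in 8 for Slc2a3 and in 11 for Slc2a1. The Treg call held in 18 and in 14.

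Of the 9 tested enzymes of the upper part of glycolysis, in which glucose is phosphorylated and split, 6 fell in nFoxA1Treg and 7 in Treg, and none rose. The shares over all genes were 11.2% and 10.3% lower, and 8.46% and 6.23% higher. Aldoc (1451461_a_at), an aldolase isoenzyme best known from brain, showed the largest fall of the list. It read 9.20, 6.81 and 7.73 in EncT, 6.12, 5.75 and 5.80 in nFoxA1Treg and 6.30, 5.32 and 5.91 in Treg. The EncT arrays themselves were spread over more than 2 log2 units, yet each was above all 6 regulatory arrays. The level was 4.07-fold lower in nFoxA1Treg (-2.02, SE 0.43, adjusted p = 0.00639) and 4.19-fold lower in Treg (-2.07, SE 0.43, adjusted p = 0.00716). Without EncT replicate 1 the changes were -1.38 and -1.43, and both stayed called. Pfkl (1439148_a_at), the liver-type subunit of phosphofructokinase, which commits sugar to glycolysis, read 9.88, 8.96 and 9.26 in EncT, 8.61, 8.62 and 8.45 in nFoxA1Treg and 8.47, 8.36 and 8.56 in Treg. The groups did not overlap, and Pfkl was 1.75-fold lower in nFoxA1Treg (-0.81, SE 0.16, adjusted p = 0.00515) and 1.87-fold lower in Treg (-0.90, SE 0.16, adjusted p = 0.00366). Of its 3 probe sets, 1 changed by -0.31 and -0.41 and was not called.

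The other 2 phosphofructokinase subunits did not pass the test. Pfkm, the muscle type, changed by -0.28 (adjusted p = 0.15) and -0.38 (adjusted p = 0.0552), and Pfkp, the platelet type, by -0.28 and -0.30. Hk1, the housekeeping hexokinase, fell by 0.23 and 0.24 (SE 0.07), while Hk2, the inducible form, changed by -0.43 in nFoxA1Treg (adjusted p = 0.107) and by -0.55 in Treg (adjusted p = 0.0489). Aldoa and Tpi1, which split and interconvert the 3-carbon sugars, fell by 0.56 and 0.61 in nFoxA1Treg and by 0.60 and 0.82 in Treg. Their brightest probe sets carry the suffix x, which the manufacturer gives to probes shared with other sequences. Pfkfb3, which makes the activator of phosphofructokinase, fell by 0.68 and 0.60 on its brightest probe set, but its second probe set changed by 0.35 and 0.47 and was not called, so the direction of Pfkfb3 depends on the probe set. Without EncT replicate 1 the changes of Pfkfb3 were -0.40 and -0.32, those of Aldoa -0.35 and -0.39, that of Tpi1 in nFoxA1Treg -0.36 and that of Hk2 in Treg -0.26, and the calls of Tpi1 and Hk2 and the Treg call of Pfkfb3 were lost. The calls of Hk1 were lost there too. Of 18 alternatives, those of Hk1 held in 9 for nFoxA1Treg and 10 for Treg, and those of Pfkfb3 in 13 and 8. The Treg call of Hk2 held in 7.

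In the lower part of glycolysis, which yields energy, 1 of 3 tested enzymes fell in nFoxA1Treg and 2 in Treg, where 11.2% and 10.3% of all genes did. Pgam1, a phosphoglycerate mutase, read 11.95, 11.10 and 11.32 in EncT, 10.95, 10.91 and 11.00 in nFoxA1Treg and 10.97, 10.88 and 10.92 in Treg. EncT replicate 1 stood well above the others, and replicate 2 exceeded the highest regulatory array by little. Pgam1 was 1.42-fold lower in nFoxA1Treg (-0.50, SE 0.15, adjusted p = 0.0302) and 1.45-fold lower in Treg (-0.53, SE 0.15, adjusted p = 0.0282). Pkm, the pyruvate kinase of most tissues, read 12.29, 11.80 and 11.89 in EncT, 11.75, 11.80 and 11.58 in nFoxA1Treg and 11.67, 11.57 and 11.70 in Treg. EncT replicate 2 and nFoxA1Treg replicate 2 read nearly the same. Its change was -0.28 in nFoxA1Treg (SE 0.11, adjusted p = 0.0810) and -0.34 in Treg (SE 0.11, adjusted p = 0.0432). The Pkm call in Treg held in 9 of 18 alternatives and was lost without any 1 of the Treg arrays. Without EncT replicate 1 the Treg change of Pkm was -0.19 and the changes of Pgam1 were -0.26 and -0.28. Pgk1, the phosphoglycerate kinase, changed by -0.15 and -0.16 and passed in neither.

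At the fate of pyruvate, the 2 lactate dehydrogenase subunits and the 2 pyruvate dehydrogenase kinases differed. Pdk1 (1423747_a_at), a kinase that holds pyruvate back from the mitochondrion and a classical HIF1A target, read 10.08, 9.09 and 9.51 in EncT, 8.64, 8.78 and 8.45 in nFoxA1Treg and 8.63, 8.30 and 8.50 in Treg. All EncT arrays were the highest of these 9, and Pdk1 was 1.92-fold lower in nFoxA1Treg (-0.94, SE 0.18, adjusted p = 0.00395) and 2.12-fold lower in Treg (-1.08, SE 0.18, adjusted p = 0.00244). Its 3 other probe sets fell by 0.99 to 1.22 in nFoxA1Treg and by 1.10 to 1.26 in Treg. Pdk3, another kinase of the same family, read 8.70, 8.64 and 8.68 in EncT, 8.57, 8.54 and 8.52 in nFoxA1Treg and 8.46, 8.50 and 8.56 in Treg. Its arrays did not overlap but the gap was small: -0.13 in nFoxA1Treg (SE 0.05, adjusted p = 0.102) and -0.17 in Treg (SE 0.05, adjusted p = 0.0489), a call that held in 5 of 18 alternatives. Ldha, the subunit that favours lactate formation, changed by -0.08 (95% interval -0.24 to 0.07) and -0.15 (-0.30 to 0.0033), and Ldhb, its counterpart, by 0.16 and 0.13, with no call.

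In oxygen sensing 2 of the 3 hydroxylases fell in each comparison, while Hif1a did not. Over all genes 11.2% fell in nFoxA1Treg and 10.3% in Treg. Egln3 (1418649_at), a hydroxylase whose own gene HIF1A raises, read 9.96, 9.50 and 9.57 in EncT, 8.99, 8.95 and 8.91 in nFoxA1Treg and 9.04, 9.01 and 8.88 in Treg. The lowest EncT array exceeded the highest regulatory array, and Egln3 was 1.66-fold lower in nFoxA1Treg (-0.73, SE 0.10, adjusted p = 0.00039) and 1.63-fold lower in Treg (-0.70, SE 0.10, adjusted p = 0.000706). Its second probe set fell by 0.92 and 0.76. Egln1, the main hydroxylase at normal oxygen, read 10.62, 9.64 and 9.94 in EncT, 9.49, 9.42 and 9.27 in nFoxA1Treg and 9.32, 9.28 and 9.28 in Treg. The groups did not overlap, with changes of -0.67 (SE 0.17, adjusted p = 0.0168) and -0.78 (SE 0.17, adjusted p = 0.0103). Without EncT replicate 1 they were -0.40 and -0.50. Egln2, the family member not raised by HIF1A, changed by -0.05 (95% interval -0.19 to 0.08) and -0.01 (-0.15 to 0.13). Vhl, which presents hydroxylated HIF1A for destruction, changed by -0.17 and -0.13 without a call.

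Hif1a itself read 11.61, 11.57 and 11.66 in EncT, 11.72, 11.73 and 11.70 in nFoxA1Treg and 11.73, 11.76 and 11.75 in Treg. The EncT arrays were the lowest, by a narrow margin. The change was 0.10 in nFoxA1Treg (SE 0.04, adjusted p = 0.0786) and 0.13, or 1.10-fold, in Treg (SE 0.04, adjusted p = 0.0352). The Treg call ended in most alternatives: it held in 5 of 18, with adjusted p up to 0.921 on the second probe set. HIF1A is regulated chiefly at the protein, which arrays do not read.

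Both tested mitochondrial genes fell in nFoxA1Treg and 1 of them in Treg, where 11.2% and 10.3% of all genes did. Bnip3 (1422470_at), which marks mitochondria for removal, read 10.27, 8.58 and 9.32 in EncT, 8.23, 8.19 and 7.80 in nFoxA1Treg and 8.13, 7.68 and 7.93 in Treg. Every EncT array lay above the 6 others, and Bnip3 was 2.49-fold lower in nFoxA1Treg (-1.31, SE 0.30, adjusted p = 0.00868) and 2.78-fold lower in Treg (-1.47, SE 0.30, adjusted p = 0.00599). Higd1a, a small protein of the respiratory chain, read 11.17, 10.46 and 10.65 in EncT, 10.39, 10.36 and 10.30 in nFoxA1Treg and 10.47, 10.31 and 10.38 in Treg. EncT replicate 2 lay just below Treg replicate 1, so those groups overlapped. The change was -0.41 in nFoxA1Treg (SE 0.13, adjusted p = 0.0407) and -0.37 in Treg (SE 0.13, adjusted p = 0.0657), and the nFoxA1Treg call held in 7 of 18 alternatives, with a change of -0.21 without EncT replicate 1.

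Of the other 8 tested hypoxia targets, 5 fell in each comparison and none rose. The shares over all genes were 11.2% and 10.3% lower, and 8.46% and 6.23% higher. Ddit4 (1428306_at), an inhibitor of the growth kinase complex mTORC1 that stress induces, read 11.96, 11.43 and 11.28 in EncT, 10.40, 10.48 and 10.53 in nFoxA1Treg and 10.54, 10.85 and 10.75 in Treg. The EncT arrays were the highest, and for this gene nFoxA1Treg lay below Treg without overlap. Ddit4 was 2.12-fold lower in nFoxA1Treg (-1.09, SE 0.13, adjusted p = 0.000259) and 1.80-fold lower in Treg (-0.84, SE 0.13, adjusted p = 0.0016). P4ha1 (1452094_at), a subunit of the hydroxylase that matures collagen, read 9.44, 8.54 and 8.94 in EncT, 8.32, 8.25 and 8.07 in nFoxA1Treg and 8.16, 7.99 and 8.07 in Treg. All EncT arrays were above the others, with changes of -0.76 (SE 0.16, adjusted p = 0.00608) and -0.90 (SE 0.16, adjusted p = 0.00331). P4ha2, its sister subunit, was dim and read 6.22, 4.35 and 4.46 in EncT, 3.95, 2.64 and 3.66 in nFoxA1Treg and 3.97, 3.53 and 3.34 in Treg. In the fit without the filter its changes were -1.59 (adjusted p = 0.0600) and -1.40 (adjusted p = 0.106).

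Ankrd37, a small ankyrin-repeat protein known as a HIF1A target, fell by 1.34 and 1.45 (SE 0.36). Kdm3a, a histone demethylase that uses oxygen, fell by 0.55 and 0.62, and Mxi1, an antagonist of Myc, by 0.36 and 0.41. Without EncT replicate 1 the changes were -0.74 and -0.86 for Ankrd37, -0.31 and -0.38 for Kdm3a and -0.21 and -0.26 for Mxi1, with the nFoxA1Treg call of Mxi1 lost. The Ankrd37 calls held in 16 and 15 of 18 alternatives, and those of Mxi1 in 8 and 13. The second probe set of Mxi1 changed by -0.13 and -0.21 and was not called. Vegfa, the growth factor for blood vessels, changed by -0.10 and -0.12, Ero1l, an oxidase of protein folding, by -0.42 and -0.40, and Bhlhe40, a repressor active in T cells, by -0.10 and -0.21, none of them called.

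**Figure D2:**
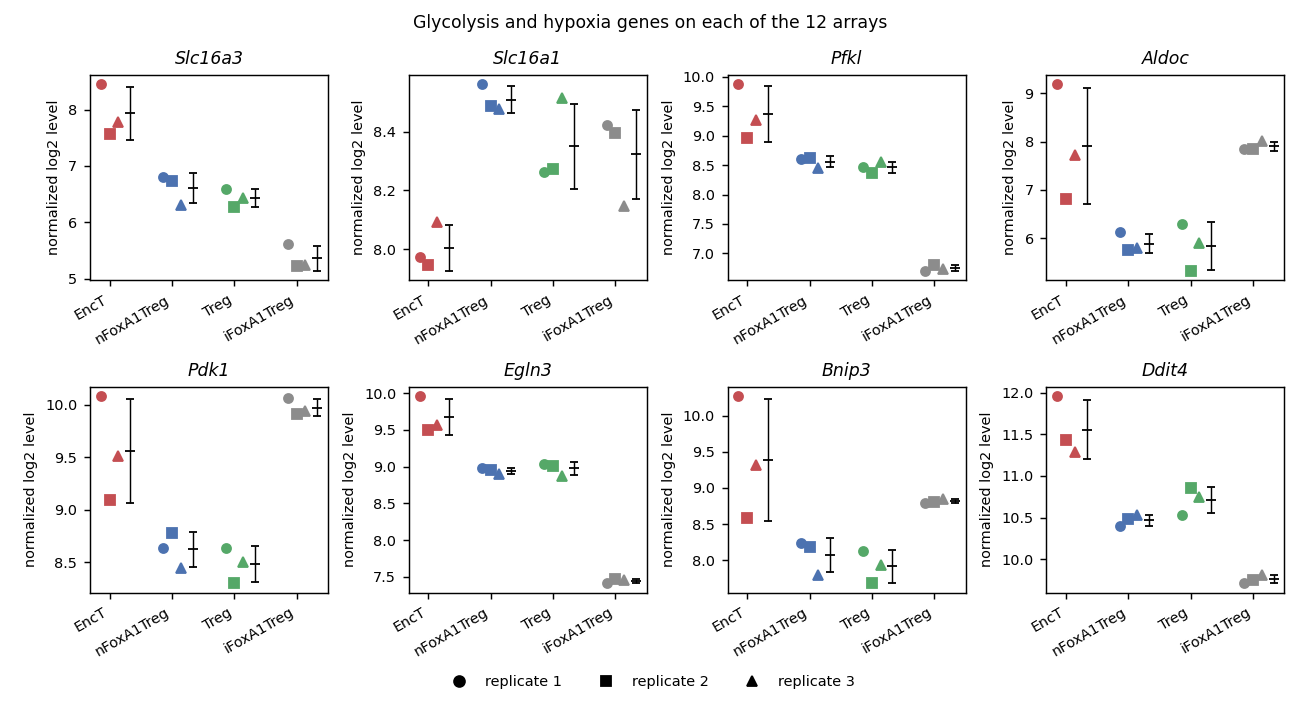
Normalized log2 level of 8 genes on each of the 12 arrays (symbols by replicate number), with the mean and SD of each group in black; the axes do not start at 0. For all but Slc16a1 the 3 EncT arrays lie above the 6 nFoxA1Treg and Treg arrays, and EncT replicate 1 is the highest of its group.

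In all, 8 genes fell in both comparisons in each of the 18 alternatives run at an adjusted p under 0.05, namely Slc16a3, Pfkl, Aldoc, Pdk1, Egln3, Bnip3, P4ha1 and Ddit4. The share of all genes that did so was not computed, so whether 8 is many is not known. Where the fit used only the 6 arrays of the 2 groups, 9 genes were called in nFoxA1Treg and 14 in Treg, with 1229 and 1140 over all genes. The counts were also low, at 11 and 13, without any 1 of the nFoxA1Treg arrays, and at 12, 14 and 16 without Treg replicate 2, 3 or 1. Over all genes, 1524, 1517 and 2127 were called without nFoxA1Treg replicate 1, 2 or 3. Without Treg replicate 2, 3 or 1 the counts over all genes were 1013, 1068 and 1469. Of the genes called in nFoxA1Treg, 13 had 22 further probe sets, of which 21 had the same sign, 16 were called the same way and none was called the other way. In Treg, 13 had 24 further probe sets, of which 23 had the same sign, 17 were called the same way and none the other way.

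The 3 EncT arrays differed among themselves in these genes more than in others. The median standard deviation of the 35 genes was 0.372 within EncT, where that of all genes was 0.136. Within nFoxA1Treg the corresponding values were 0.104 and 0.0969, within Treg 0.0797 and 0.0869, and on the arrays labelled iFoxA1Treg 0.0669 and 0.0959. The difference within EncT had a fixed order: EncT replicate 1 was the highest of the 3 in 30 of the 35 genes, and replicate 2 the lowest in 29. Over all genes these shares were 27.7% and 26.3%. The full order of replicate 1 above 3 above 2 held for 26 of the 35 genes (74.3%) and for 16.3% of all genes tested. Of the 9 upper glycolysis enzymes 8 followed it, and of the 5 oxygen-sensing genes 2 did.

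**Figure D3:**
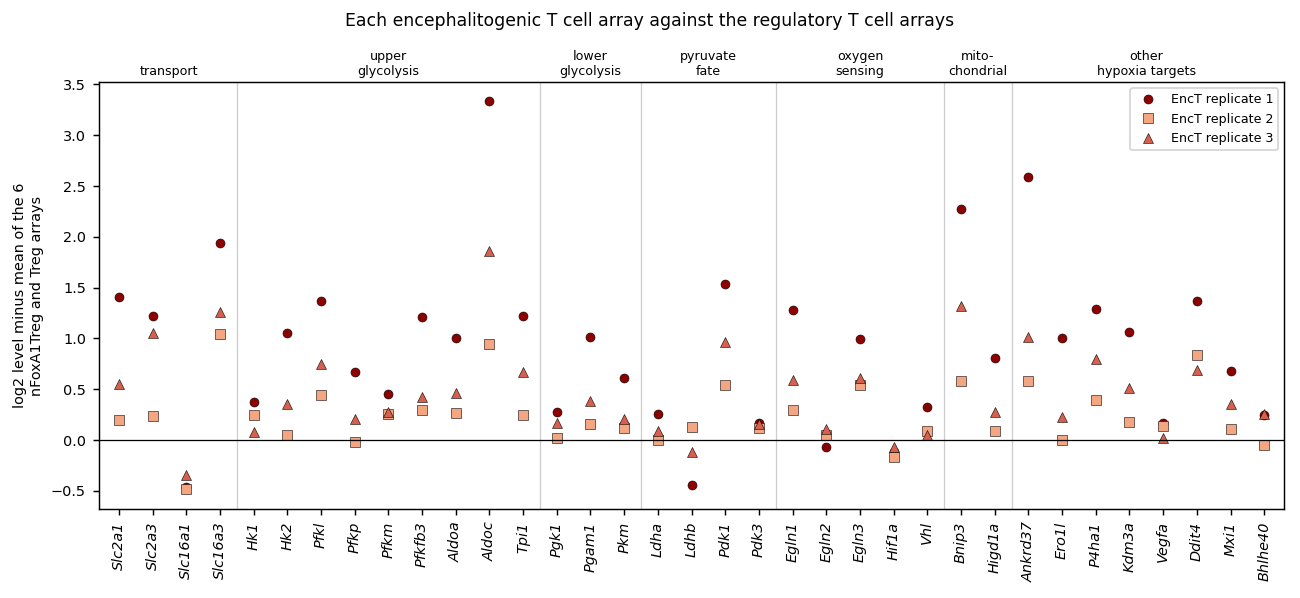
Level of each of the 35 tested genes on each EncT array minus its mean over the 6 nFoxA1Treg and Treg arrays (log2), ordered by role. EncT replicate 1 (dark circles) has the highest point for 30 genes and replicate 2 (light squares) the lowest for 29.

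Set against the mean of the 6 nFoxA1Treg and Treg arrays, the median difference over the list was 1.0 for EncT replicate 1, 0.36 for replicate 3 and 0.18 for replicate 2. Over all genes it was -0.034, 0.0024 and 0.054. EncT replicate 1 exceeded all 6 regulatory arrays in 30 of the 35 genes, replicate 3 in 29 and replicate 2 in 23, where 27.6%, 27.9% and 32.9% of all genes did so. Without EncT replicate 1, 15 genes were called lower and 1 higher in nFoxA1Treg, with a median change of -0.21 (background 8.59% lower and 5.43% higher), and 17 lower and 1 higher in Treg, with a median of -0.28 (7.56% and 3.67%). Without replicate 2, 25 were lower in nFoxA1Treg and 28 in Treg, where 1577 and 1510 of all 12614 genes tested were. The negative sign held for 32 and 33 of the 35 without EncT replicate 1. Of the called genes, 10 in each comparison then changed by less than the full value divided by 1.5.

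Markers of some other cells also differed between EncT and the regulatory groups. None of the 4 tested neuron genes and 2 tested erythroid genes was called in either comparison. The summed signal of 7 neuron genes was 161 to 195 in EncT, 177 to 198 in nFoxA1Treg and 194 to 216 in Treg. That of 3 erythroid genes was 70.9 to 95.7, 89.6 to 92.7 and 72.7 to 103. The summed signal of 10 macrophage and monocyte genes was 236 to 275 on the EncT arrays, 110 to 161 in nFoxA1Treg and 156 to 182 in Treg, and 7, 4 and 4 of the 10 averaged above the level for testing, 4.05. That of 6 B cell genes was 236 to 324, 81.7 to 133 and 130 to 164, with 2 above that level in each group. That of 6 dendritic cell and MHC class II genes was 390 to 471, 82.0 to 183 and 189 to 255, with 4, 1 and 3 above it. Several of these genes averaged under it in all 3 groups and entered the test through the arrays labelled iFoxA1Treg, so no count of falls is given. Among those above the level in every group, Klrd1 of NK and CD8 T cells averaged 8.81 in EncT, 7.90 in nFoxA1Treg and 7.89 in Treg (changes of -0.91 and -0.92, limma adjusted p = 0.000502 and 0.000661), Ighm of B cells 7.46, 5.76 and 6.38 (-1.71 and -1.09), and Cd74, the MHC class II chaperone, 8.10, 5.93 and 7.06 (-2.17 and -1.04), all called lower in both. Some further genes of the macrophage, B cell, and dendritic cell and MHC class II lists were also called lower, while others were not called. Klrd1 was the only gene called in its list. In the list of Klrd1, the defining marker Cd8a averaged 4.81 in EncT, 4.92 in nFoxA1Treg and 4.92 in Treg. Cd8b1 averaged 6.48, 6.27 and 6.44, and Nkg7 10.85, 10.89 and 10.77. Pax5 of B cells ran the other way, at 3.94, 4.28 and 4.27. The sum of the 5 CD8 T and NK genes was 2069 to 3011 in EncT, 2215 to 2317 in nFoxA1Treg and 1977 to 2257 in Treg. The sum of 7 T cell genes was 15134 to 16777 over these 9 arrays, and none of the 7 passed the test. Of the defining markers, Lyz2 averaged 5.18 in EncT, 1.25 in nFoxA1Treg and 2.59 in Treg, Csf1r 5.44, 5.07 and 5.23, Cd79b 3.79, -0.35 and 3.0, H2-Aa 5.69, 3.61 and 4.79, and Itgax 4.18, 3.11 and 3.23. The dendritic cell and MHC class II sum was highest on EncT replicate 2, at 471. The macrophage sum was 275, 268 and 236 and the B cell sum 324, 265 and 236 on EncT replicates 1, 2 and 3. Their part in the result was not tested.

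Related genes outside the list were counted in the same fit. The counts are to be set beside the shares over all genes tested. In nFoxA1Treg 11.2% of all genes fell and 8.46% rose, and in Treg 10.3% fell and 6.23% rose. Whether any of these lists departed from those shares was not tested. Of 43 further hypoxia targets not on the list, 35 were tested, and 10 fell in nFoxA1Treg, 9 fell in Treg and none rose, with medians of -0.19 and -0.17. Narf fell by 0.66 and 0.62, Zfp395 by 0.58 and 1.0, Insig2, which restrains sterol synthesis, by 0.40 and 0.42, and Pnrc1, a nuclear receptor coactivator, by 0.58 in both. Ak4, an adenylate kinase of mitochondria, and Ndrg1, a classical hypoxia marker, fell by 1.68 and 1.22 in nFoxA1Treg. In Treg Ak4 fell by 1.72, and Ndrg1 changed by -1.19 (adjusted p = 0.0541). The EncT order of replicate 1 above 3 above 2 held for 17 of these 35 (48.6%).

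Among 17 partners of oxygen sensing, 2 fell and 1 rose in nFoxA1Treg, where 11.2% and 8.46% of all genes did. In Treg 3 fell and 1 rose, where 10.3% and 6.23% did. Ubxn7, an adaptor of the ligase that removes HIF1A, changed by -0.72 and -0.57 (adjusted p = 7.13e-05 and 0.000531). Ep300, a coactivator of HIF1A, fell by 0.32 and 0.18, and Hif1an, which blocks the activity of HIF1A, by 0.34 in Treg. Siah2, a ligase that degrades prolyl hydroxylases, rose by 0.78 and 0.56.

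Other routes of sugar use were counted in the same way. Over all genes 11.2% fell and 8.46% rose in nFoxA1Treg, and 10.3% and 6.23% in Treg. Of 18 further glycolytic isoenzymes and glucose carriers, 2 fell in nFoxA1Treg and 1 in Treg, with Pgm1, a phosphoglucomutase, at -0.57 and -0.74. Slc2a9, a urate and hexose carrier, fell by 0.50 in nFoxA1Treg and changed by -0.48 in Treg (adjusted p = 0.0514). Adpgk, a kinase of glucose that uses ADP, changed by 0.33 and 0.22, and Gpd2, a mitochondrial glycerol phosphate dehydrogenase, by 0.17 and 0.20, with no call. Of 9 genes of the pentose phosphate pathway, 2 fell and 1 rose in each comparison: Pgls at -0.25 and -0.21, Pgd at -0.26 and -0.27, and Prps1 at 0.32 and 0.29. Of 27 genes of pyruvate entry and the citrate cycle, 3 rose and 2 fell in nFoxA1Treg and 1 fell in Treg. Idh1, the cytosolic isocitrate dehydrogenase, fell by 0.51 and 0.71. In nFoxA1Treg the fumarase Fh1 rose by 0.17 and Idh3b, a subunit of mitochondrial isocitrate dehydrogenase, fell by 0.18, while in Treg they changed by 0.12 and -0.12. Sdhb, of succinate dehydrogenase, rose by 0.18 in nFoxA1Treg and changed by 0.17 in Treg. Pdp2, a phosphatase of pyruvate dehydrogenase, changed by -0.40 and -0.42 without a call. The medians of the 3 lists lay between -0.026 and 0.097.

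Of 19 genes of the Myc and mTORC1 network, which set growth and nutrient use, 5 fell and 1 rose in nFoxA1Treg and 4 fell in Treg. The shares over all genes were 11.2% lower and 8.46% higher in nFoxA1Treg, and 10.3% and 6.23% in Treg. Txnip, which curbs glucose uptake, fell by 0.55 in both, Myc by 0.39 and 0.30, and Pik3cd, a lymphocyte lipid kinase, by 0.27 and 0.24. Of 7 reference genes often used as loading controls, 1 rose in nFoxA1Treg (Hprt, by 0.12) and none changed in Treg. Tbp, Ywhaz, Actb and B2m lay between -0.14 and 0.08 in both.

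The nFoxA1Treg and Treg cells were not told apart by any single gene of the list. None of the 35 genes passed the test in limma in either direction, where 0% of all genes tested were higher and 0.00793% lower, and none had an unadjusted p under 0.05, a mark passed by 468 of the 12609 genes (3.71%). The median change was 0.045, where that of all genes was 0.0061. The change was negative for 8 of the 35 genes and for 5988 of the 12609, a difference that was not tested. The widest interval belonged to Aldoc, whose 95% limits were -0.95 and 1.04, and 22 of the 35 intervals lay within 0.5 of 0. The median interval was 0.32 on each side, so changes smaller than that could mostly not have been seen. These intervals are not adjusted for the number of genes, and a call needs a larger change still. Over all genes the highest change was 1.15, and none was called higher. The groups were not shown to be alike. Ddit4 was lower in nFoxA1Treg without overlap (-0.24, 95% interval -0.55 to 0.06), and Bhlhe40 was higher without overlap (0.11, interval -0.08 to 0.31), each with an adjusted p of 1. Of all genes tested, 4.67% were lower and 6.57% higher in nFoxA1Treg without overlap.

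On the arrays labelled iFoxA1Treg the genes of the list went both ways. Against EncT 4 of the 35 rose and 21 fell, against Treg 9 rose and 16 fell, and against nFoxA1Treg 8 rose and 16 fell. These shares must be read against a background in which most genes differed: 33.9% of all genes rose and 38.3% fell against EncT, 35.2% and 38.4% against Treg, and 35.2% and 39.2% against nFoxA1Treg. The medians were -0.59, -0.07 and -0.19. With values as deposited, the median over all genes moved to -0.18 against EncT, -0.15 against Treg and -0.17 against nFoxA1Treg, and the calls among all genes to 25.9% higher and 45.8% lower against EncT, 28.1% and 44.4% against Treg, and 27.9% and 45.4% against nFoxA1Treg. The summed signal on these arrays was 4197 to 4495 for the T cell genes, 14397 to 14859 for the macrophage genes, 20820 to 22409 for the B cell genes and 11630 to 12211 for the dendritic cell and MHC class II genes. All 7 T cell, 10 macrophage and 6 B cell genes averaged above the level for testing here. So did 5 of 6 in the dendritic and class II list, Itgax being the exception. Their part in the changes of the list was not tested.

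**Figure D4:**
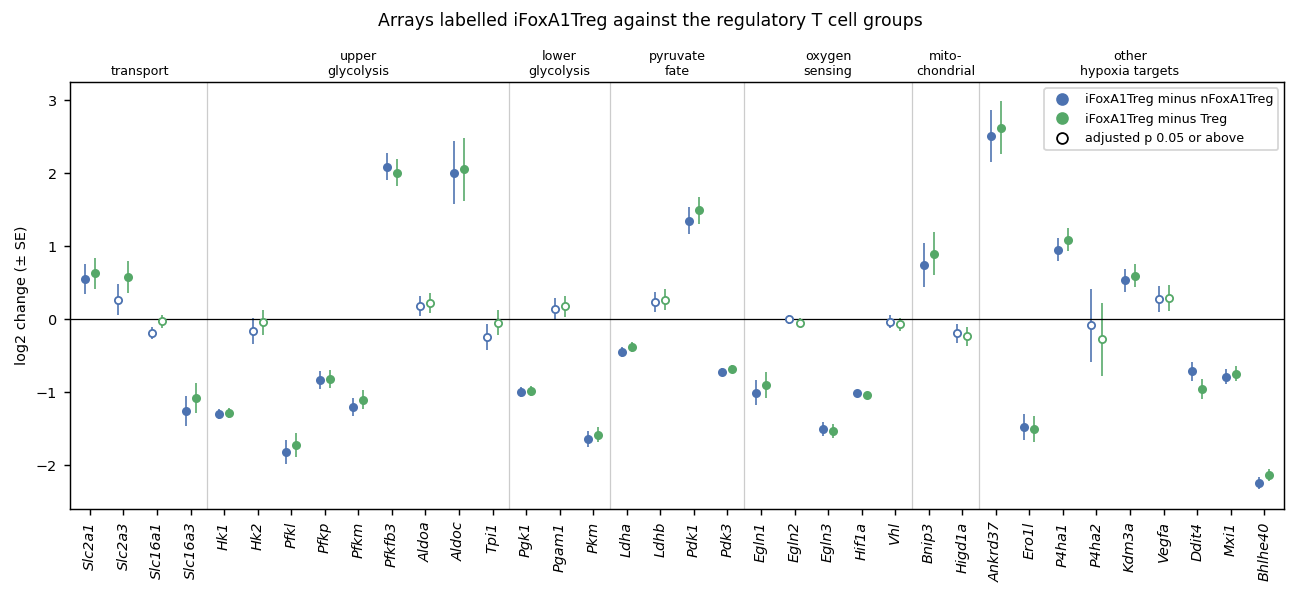
Log2 change (points, with SE as bars) of the 36 measured genes on the arrays labelled iFoxA1Treg against nFoxA1Treg (blue) and Treg (green), 3 arrays per group, ordered by role. Open points have an adjusted p of 0.05 or above, and P4ha2 comes from the fit without the filter. Ankrd37, Pfkfb3, Aldoc and Pdk1 lie above 1 and Bhlhe40 lies lowest, at -2.24 and -2.13.

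In all, 16 genes were lower on these arrays than in each of the 3 other groups, where 33.9% of all genes were. Bhlhe40 read 8.25, 8.21 and 8.42 there, and between 10.40 and 10.74 on the 9 other arrays. No array overlapped, and the changes were -2.34, -2.13 and -2.24 against EncT, Treg and nFoxA1Treg (SE 0.08, largest adjusted p = 6.66e-11). Pfkl read 6.71, 6.80 and 6.73, which was 6.15-fold below EncT (-2.62) and 3.29-fold below Treg (-1.72). Another of its 3 probe sets fell by 2.28 against EncT and 1.51 against Treg, but the remaining probe set was called the other way, at 1.04 against EncT (adjusted p = 0.00596), 1.45 against Treg and 1.35 against nFoxA1Treg, so the direction of Pfkl depends on the probe set. Pkm read 9.96, 10.07 and 10.18 and fell by 1.92, 1.58 and 1.64 in the same order. Egln3 read 7.41, 7.47 and 7.45 and fell by 2.23, 1.53 and 1.5, and Ero1l, at 8.77, 8.83 and 8.81, by 1.89, 1.5 and 1.47. Slc16a3, at 5.61, 5.22 and 5.24, was 5.96-fold below EncT (-2.58, SE 0.21). Hif1a read 10.75, 10.73 and 10.67 and fell by 0.90, 1.03 and 1.0 (SE 0.04).

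The largest rise against nFoxA1Treg and Treg was in Ankrd37. It read 8.52, 8.51 and 8.64, against 5.76 to 6.20 in nFoxA1Treg and Treg and 6.57 to 8.57 in EncT. The EncT range reached into the range of these arrays through replicate 1. Ankrd37 rose by 2.63 against Treg (SE 0.36, adjusted p = 1.76e-05), by 2.51 against nFoxA1Treg and by 1.18 against EncT, the last being 1.78 without EncT replicate 1 and 0.77 without replicate 2. Pfkfb3, at 8.26, 8.04 and 8.12, rose by 2.01, 2.09 and 1.41, and was with Ankrd37 the pair that was higher than in all 3 groups, where 29.1% of all genes were. Its second probe set rose by 0.42, 0.54 and 0.89, all called.

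Aldoc read 7.84, 7.84 and 8.01, within the EncT range, and rose by 2.06 against Treg and 2.01 against nFoxA1Treg, while its change from EncT was -0.01 (95% interval -1.0 to 0.98). Pdk1, at 10.06, 9.91 and 9.94, rose by 1.49 and 1.35 and differed from EncT by 0.41 (adjusted p = 0.0607). Its 3 other probe sets gave 0.11, 0.055 and 1.74 against EncT, only the last being called (limma adjusted p = 2.01e-05). The difference of Pdk1 from EncT therefore depends on the probe set. P4ha1, at 9.15, 9.12 and 9.24, rose by 1.09 and 0.96 on its brightest probe set. Its second probe set gave 0.14 against Treg (adjusted p = 0.390), -0.036 against nFoxA1Treg and -0.63 against EncT, so the rise of P4ha1 rests on 1 probe set. Against EncT, Ldhb rose by 0.40 (adjusted p = 0.0211) and Slc16a1 by 0.32 (adjusted p = 0.0045), and neither was called with values as deposited. Ldhb changed by 0.25 without EncT replicate 1, with no call, and turned to -0.085 with its probe sets averaged. Of the further probe sets of called genes, 18 of 26 were called the same way and 3 the other way against EncT, 20 of 24 and 2 against Treg, and 19 of 22 and 1 against nFoxA1Treg. Probe sets other than the brightest were called the other way for Pfkl in all 3 comparisons, for Aldoa (0.46) and Ldhb (-0.38) against EncT and for Slc2a3 (-1.62) against Treg.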

How the data were processed

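Total RNA was extracted with Trizol and cleaned with DNase, and biotin-labelled cRNA was made by one-cycle amplification from the 3' end and read on 12 arrays, per the labels' protocols. The table as deposited is on a log2 scale and has 45037 probe sets. PLIER, which turns the probes of each set into a single value, is listed in the submitters' processing notes. How it was run, and whether arrays were normalized to each other, is not given in the sources used here. The log2 base was read from the range of the values, and no offset had been added. The number of arrays limits the precision.

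Groups were taken from the labels. The array medians spanned 0.202 log2, above a tolerance of 0.2, and quantile normalization was applied. The brighter 60% of probe sets by mean log2 were kept, which set a level of 4.05. Each gene took its brightest probe set with 1 symbol in the array annotation (34945 probe sets had 1 symbol, 932 several and 9160 none). The test was limma 3.58.1 (R 4.3.3) over all 12 arrays, with 1 mean per group, empirical Bayes moderation with an intensity trend and two-sided p-values adjusted by Benjamini-Hochberg over all genes of a comparison. The 95% intervals use the moderated SE and the residual degrees of freedom of the samples. A gene is called, or said to rise or fall, at an adjusted p under 0.05. The fit was tested on simulated data. A summed marker signal adds 2 to the power of each normalized log2 value.

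The 40 genes, the related lists, the markers and the rule for which genes are described were chosen with earlier results of these data known. Values on every array are given for the 2 genes per role with the smallest adjusted p in each comparison with EncT, for genes called against the direction of the list, and for P4ha2. On the arrays labelled iFoxA1Treg the 5 largest rises and falls are given, with Hif1a added after its values were seen. From each related list the genes with the smallest adjusted p are named; Ak4 and Ndrg1 were added after their values were seen.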

Additional observations from a re-analysis of the deposited data

How the results depend on the processing

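The number of listed genes called was recomputed under normalization as deposited or by medians, filters, a scale with an offset of 16, other probe sets, fewer arrays, array weights, a fit without the intensity trend, a stricter threshold and each array left out. For nFoxA1Treg against EncT the count of 21 became 9 in the fit on the 2 groups alone, 13 without the intensity trend and 9 at an adjusted p under 0.01, and 11 to 26 with 1 array left out (13 without nFoxA1Treg replicate 1, 13 without replicate 2, 11 without replicate 3). For Treg against EncT the count of 24 became 14 on the 2 groups alone and 10 at an adjusted p under 0.01, and 12 to 29 with 1 array left out (12 without Treg replicate 2, 14 without replicate 3). The counts over all genes, 2474 and 2084, became 1229 and 1140 on the 2 groups alone, 1117 and 775 at an adjusted p under 0.01, and 4721 and 4196 with array weights. They were 2004 and 1583 without the intensity trend, and 1517 to 3010 and 1013 to 2716 with 1 array left out. Over all genes the split of 785 higher and 1299 lower in Treg became 535 and 1417 as deposited and 429 and 1293 with centred arrays. Counts on the arrays labelled iFoxA1Treg stayed between 22 and 29, and none was called between nFoxA1Treg and Treg in any alternative. Pfkfb3 turned sign on its second probe set (0.35 in nFoxA1Treg, 0.47 in Treg against EncT). On the arrays labelled iFoxA1Treg, Ldhb turned with its probe sets averaged (-0.085 against EncT) or on the second one (-0.23 against EncT, -0.36 against nFoxA1Treg), P4ha1 on the second one (-0.63 against EncT, -0.036 against nFoxA1Treg), Slc2a3 against Treg with probe sets averaged (-0.11), and Kdm3a against EncT ranged from -0.22 to 0.22 with 1 array left out. The cause was not tested.

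Same-numbered arrays did not deviate together in every pair (correlations of -0.16 to -0.01 for nFoxA1Treg with EncT and 0.09 to 0.17 for Treg with EncT), so the numbers were not taken as pairs. In the latter every array correlated best with its own number, a hint from the data and not the design. With the replicate number as a block the counts were 20 and 22 against EncT, 0 between nFoxA1Treg and Treg, and 27, 25 and 24 on the arrays labelled iFoxA1Treg.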
